A study of Danio rerio with 12 samples.

Results

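The 39 genes described here encode matrix metalloproteinases (Mmps), Adamts proteases, Adamts-like proteins and tissue inhibitors of metalloproteinases (Timps) in the adult zebrafish heart. Members were chosen by name. Of the 22158 genes in the count table, 45 had a symbol starting with mmp, adamts, adamtsl or timp and a number, and the 39 with at least 10 counts in 2 or more of the 12 libraries were kept. They comprised 5 Timps, 8 secreted Mmps, 10 membrane-bound Mmps, 12 Adamts proteases and 4 Adamts-like proteins. Of these, 18 had at least 10 counts in all 12 libraries. The members just inside the limit were *mmp24* and *mmp17a*, each with 2 libraries at the limit and a highest count of 11, and the genes just outside it were *mmp17b* and *mmp11b*, each with 1 library at the limit and highest counts of 13 and 12. Another 4 genes, *mmp16b*, *mmp11a*, *adamts12* and *adamtsl2*, did not reach 10 counts in any library. The filter on low counts kept 37 members for testing and dropped *mmp24* and *mmp17a*.

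Mmps are zinc-dependent proteases that cleave collagens, elastin and other matrix proteins. They are made as inactive precursors, some secreted and some held at the cell surface, and the cell-surface protease Mmp14 activates the precursor of Mmp2 in mammals. Adamts proteases are secreted relatives with thrombospondin repeats, which cut proteoglycans such as versican and aggrecan or trim procollagens, and Adamts-like proteins share their matrix-binding domains but lack the protease domain. Timps bind the active site of Mmps and of some Adamts proteases and block it. In vessel walls, the balance between these proteases and inhibitors is known to shape elastic and collagenous matrix.

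Bulk RNA-seq was performed on pooled tissue from adult fish aged 6 months to 1.5 years. The study's methods give 20 pooled hearts for each genotype and do not say whether each library had its own 20. The genotype labels give the background as AB/TU, and the study's methods as AB/TL. Each of 6 groups had 2 libraries. The WT groups were the bulbus arteriosus (BA), the elastic outflow vessel of the ventricle, the sinus venosus (SV), the inflow vessel, the atrium and the ventricle. The other 2 groups were the SV and the ventricle of nr2f1a aco mutants, whose nuclear receptor gene *nr2f1a* has lost a stretch of its 5′ untranslated sequence. The allele is still transcribed, so that the *nr2f1a* level does not check the labels, and the source and tissue labels of the mutant libraries read WT while their titles and genotype labels read aco. They were used as mutant, and all statements on genotype rest on the titles and genotype labels. Only 1 mutant allele was examined, and a pool does not show the spread between fish. Nothing in the labels says how the pools of a group were separated, and p-values measure the spread between these libraries, which may be technical. The study's methods describe separating each heart into its parts before pooling. Libraries of different tissues of 1 genotype may therefore share fish, the labels do not say which, and the main model did not pair them.

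Libraries held from 28325098 to 60532949 counts, and the members took from 0.0219% to 0.169% of them. No pair of replicates was alike within counting error (chi-square over genes at least 184 per degree of freedom), and their log2 CPM correlated across genes with r from 0.910 in the mutant SV to 0.962 in the WT ventricle, where genes are not independent replicates. CPM denotes counts scaled to the TMM-adjusted library size, and FPKM the deposited values per length of gene. Values of up to 3 counts were taken as the floor, which covers counting error only. Cardiomyocyte markers summed to at least 28643 CPM in every atrial and ventricular library and to at most 2764 in every BA and SV library. The value of 28643 was that of mutant ventricle 1, beside 90363 in mutant ventricle 2. Smooth muscle markers summed to 9935 and 12518 CPM for the WT BA, 3343 and 2594 for the WT SV and at most 552 in the WT atrium and ventricle. The 2 mutant SV libraries stood apart from each other, with 1204 and 5635 CPM of smooth muscle markers and 3516 and 332 CPM of hepatocyte markers. Enterocyte markers summed to 1370 and 1457 CPM for the WT SV and to at most 4.56 in all other libraries. In bulk tissue, fewer cells of a type and less RNA per cell cannot be told apart.

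By deposited FPKM, which allows levels of different genes to be compared, a few members dominated the family. The membrane-bound *mmp23ba* had the highest mean over the 12 libraries, at 49.2 FPKM, and ranked first in 7 libraries. It was followed by the inhibitors *timp2b* at 31.0 and *timp2a* at 20.9, the gelatinase gene *mmp2* at 18.1, *timp4.3* at 10.5, *adamts1* at 8.56, *mmp14a* at 7.58 and the collagenase gene *mmp13a* at 7.06. In single libraries, the 5 most abundant members held 55.3% to 88.8% of the summed FPKM, and 21 to 30 of the 39 were below 1 FPKM. The leading member was *mmp2* in both WT SV libraries, *mmp23ba* in all 6 atrial and ventricular libraries and *timp2b* in the first replicate of both the WT BA and the mutant SV. Ranked by mean CPM over the 4 WT tissues, 14 members were highest in the BA, 12 in the SV, 5 in the atrium and 8 in the ventricle. The ranking includes members near the floor and was not made over all genes. The 2 libraries of a group often overlapped with those of the next tissue in this order, and the tests below state which tissues differed.

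**Figure D1:**
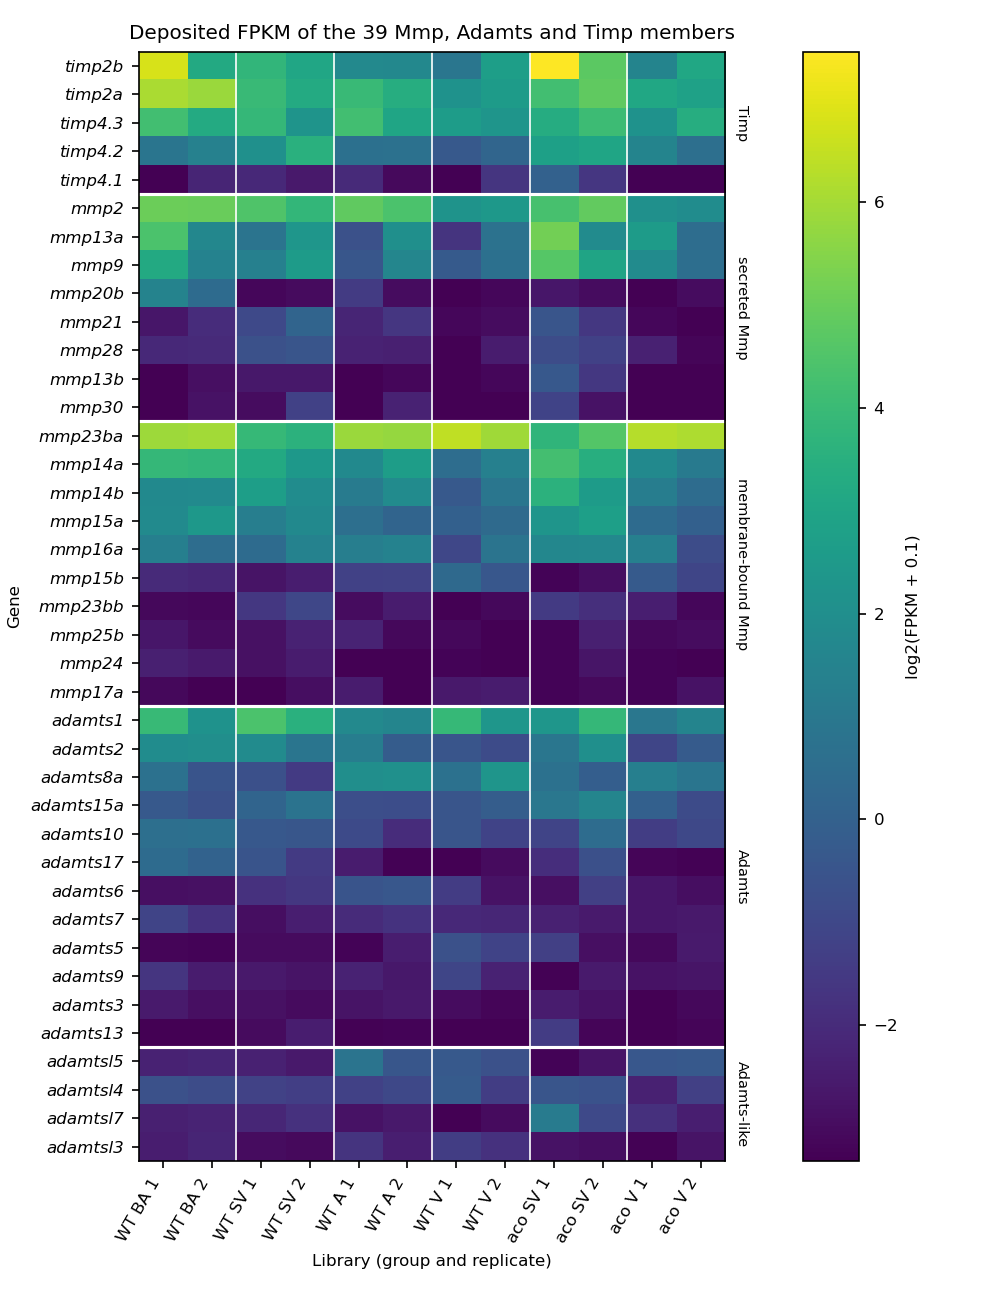
Deposited FPKM of the 39 members on a log2 scale with 0.1 added, with genes as rows grouped by class and the 12 libraries as columns grouped by tissue and genotype. The bright rows are *timp2b*, *timp2a*, *mmp2* and *mmp23ba*, and *mmp23ba* is dimmer in the 4 SV libraries than in the other 8.

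Summed FPKM by class differed between tissues for the inhibitors and the secreted and membrane-bound Mmps. The 5 Timps summed to 200.4 and 78.5 FPKM in the WT BA, 48.3 and 34.0 for the WT SV, 39.3 and 23.0 for the WT atrium and 13.0 and 18.6 for the WT ventricle. In the mutants they summed to 213 and 80.5 FPKM in the SV and 18.6 and 27.7 in the ventricle. In the first replicates of the BA and mutant SV *timp2b* was the leading gene. The 8 secreted Mmps summed to 66.7 and 39.5 FPKM in the WT BA, 27.4 and 27.01 for the WT SV, 29.8 and 28.5 for the WT atrium and 5.53 and 8.56 for the WT ventricle, so that both ventricular libraries lay below all others of the WT. The 10 membrane-bound Mmps summed to 34.7 and 27.8 FPKM in the WT SV and to 67.6 to 90.0 in the other WT libraries. The low sums in the SV rested mainly on *mmp23ba*, with 15.04 and 12.03 FPKM there and 53.8 to 85.4 in the other WT libraries. Of the 8 tested members of this class, 5 were called higher and 2 lower in the WT SV than the ventricle, beside 19.4% and 16.2% of all genes. Against the BA 1 was higher and 2 lower, beside 9.37% and 8.69% of all genes, and against the atrium 0 and 2, beside 9.61% and 10.9%. The 12 Adamts proteases summed to between 9.62 and 27.9 FPKM in WT libraries, with overlap of all tissues except for the atrium, whose 2 libraries were the lowest, and the 4 Adamts-like genes to at most 2.27 in the WT and 2.81 in the mutants. These sums were described without a test.

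The question of each comparison among WT tissues was how the arterial, venous and chamber tissues differ. Members tended to be higher in the BA and the SV than in the ventricle. Between the WT BA and WT ventricle, 18 of the 37 tested members were called at an adjusted p below 0.05, 14 higher and 4 lower in the BA, where 26.7% of the 19145 genes tested were called, 13.8% higher and 12.9% lower. Between the WT SV and WT ventricle, 19 were called, 13 higher and 6 lower in the SV, beside 35.7% of all genes, 19.4% higher and 16.2% lower. Between the WT BA and WT atrium, 13 were called, 10 higher and 3 lower in the BA, beside 18.6% of all genes, 8.46% higher and 10.1% lower. These shares of the members were 48.6%, 51.4% and 35.1%. Wherever a number of members called without 1 WT library is given here for WT tissues, fewer of all genes were called as well. The number of members called rested in part on single libraries. It was 11 in the BA against the ventricle without WT BA 1 and 9 without WT ventricle 1, 12 in the SV against the ventricle without either WT ventricle 1 or WT SV 2, and 7, 7 and 5 in the BA against the atrium without WT BA 1, WT atrium 1 and WT atrium 2, respectively.

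By the test reported here, the WT SV and WT BA differed in members about as often as in other genes. There 7 were called, 2 higher and 5 lower in the SV, or 18.9% beside 18.1% of all genes, of which 9.37% were higher and 8.69% lower. The same held for the WT SV and WT atrium, with 8 called, 4 in each direction, or 21.6% beside 20.6%, of which 9.61% were higher and 10.9% lower. For the SV and BA this depended on the setting. Without the factor of unwanted variation 3 members were called, beside 2495 of 19145 genes, and by DESeq2 13, beside 4322. Between the WT atrium and WT ventricle, only *mmp2* was called, and 5.11% of all genes were, 3.12% higher and 1.98% lower in the atrium. By unadjusted p below 0.05, 13 members differed there, 11 of them higher in the atrium, beside 21.8% of all genes. DESeq2 called 7 members, beside 11.1% of all genes. Without WT BA 1 the SV and BA differed in 4 members and without WT SV 2 in 2. Without WT atrium 1, WT atrium 2 and WT SV 2 the SV and atrium differed in 4, 4 and 5. The call of *mmp2* between atrium and ventricle was lost without WT ventricle 1 or WT atrium 1, where no member was called, and 2 members were called without WT ventricle 2.

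The median log2 fold change of the tested members was 1.32 in the BA and 1.33 in the SV against the ventricle, beside 0.16 and 0.21 over all genes tested. It was 0.31 in the BA against the atrium, beside -0.01, and 0.35 in the SV against the atrium, beside 0.06. In the SV against the BA it was -0.61, beside 0.06, and in the atrium against the ventricle 1.19, beside 0.07. *mmp30* had no counts in either WT ventricle library, and with it set at the floor the medians against the ventricle were 1.21 for the BA and 0.85 for the atrium. These comparisons share libraries and are not independent. In the mutants, the SV and ventricle differed in 18 members, 15 higher and 3 lower in the SV, beside 21.0% of all genes, 9.86% higher and 11.1% lower, with a median of 1.77 beside 0.03.

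**Figure D2:**
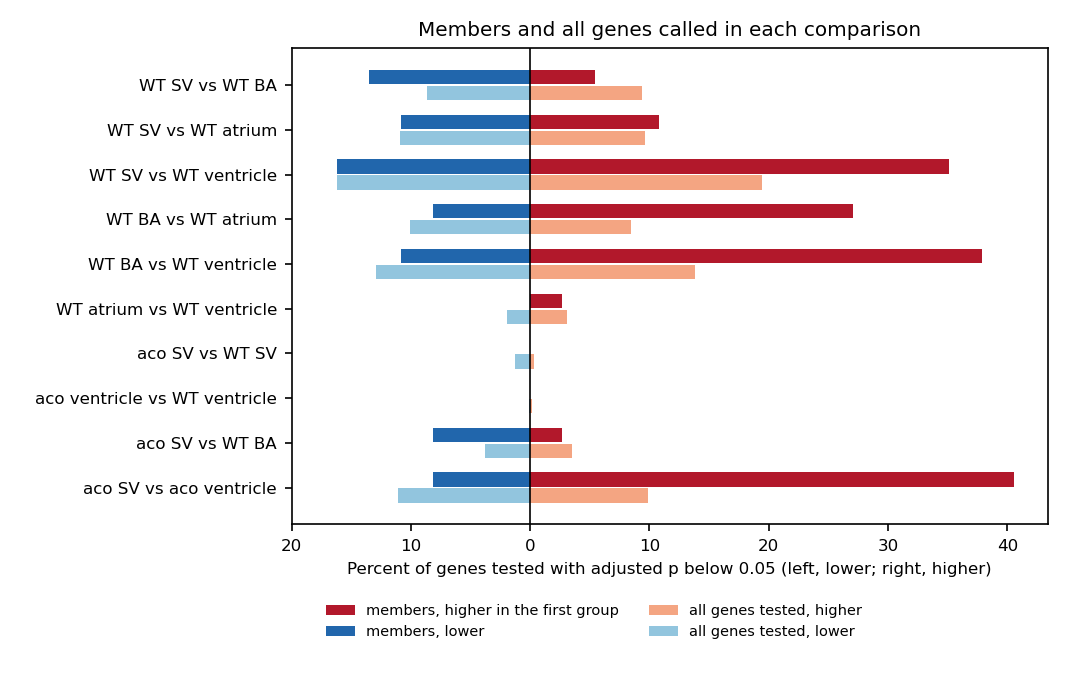
Percent of genes tested that were called at an adjusted p below 0.05 in each of 10 comparisons, to the right for genes higher in the first group and to the left for genes lower in it, with dark bars for the 37 members and light bars for all 19145 genes tested. Between the WT BA and WT ventricle 48.6% of members and 26.7% of all genes were called in both directions together, and no dark bar is seen in either comparison of genotypes.

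Each call was refitted with each library of its comparison left out in turn and under the other settings described with the methods. Calls that held throughout were counted for the members alone and not for all genes. The comparisons share libraries, so that their calls are not independent. Losses under settings other than leaving out a library are given below for some genes only. Of 88 calls over all comparisons, 32 were called throughout, wherever the gene was tested. They comprised *timp2a* and *mmp23ba* between the SV and BA, and *adamts8a*, *adamtsl5* and *mmp23ba* between the SV and atrium. Between the SV and ventricle they comprised 10 genes, *adamts17*, *adamts2*, *adamts8a*, *mmp14a*, *mmp14b*, *mmp15b*, *mmp2*, *mmp21*, *mmp23ba* and *timp4.2*. Between the BA and ventricle they were *adamts17*, *adamts2*, *mmp14a*, *mmp15a*, *mmp2*, *mmp20b* and *timp2a*, and between the BA and atrium *timp2a* alone. The 9 in the mutant SV against the mutant ventricle were *adamts17*, *adamts2*, *adamtsl5*, *mmp14a*, *mmp14b*, *mmp15a*, *mmp15b*, *mmp2* and *mmp23ba*.

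Among the inhibitors, *timp2a* was highest in the BA. It encodes a Timp2, which in mammals both blocks Mmps and takes part in the activation of Mmp2 at the cell surface. Its CPM were 420 and 371 for the WT BA, 91.2 and 58.4 for the WT SV, 98.2 and 68.2 for the WT atrium and 26.1 and 38.9 for the WT ventricle. In the mutants they were 105 and 175 in the SV and 52.0 and 46.9 in the ventricle. Both BA libraries were above all others. *timp2a* was lower in the WT SV than the WT BA, with a log2 fold change of -2.39 (SE 0.38, adjusted p = 0.00179), and higher in the BA than the atrium by 2.31 (SE 0.38, adjusted p = 0.00162) and in the BA than in the ventricle by 3.64 (SE 0.40, adjusted p = 0.000103). It was also higher in the SV than in the ventricle by 1.25 (SE 0.37, adjusted p = 0.0223), a call that was lost without WT ventricle 1 (0.79, adjusted p = 0.199) or WT SV 1 (0.89, adjusted p = 0.171). Within the mutants, the SV exceeded the ventricle by 1.51 (SE 0.37, adjusted p = 0.0133), with adjusted p values of 0.0695 without mutant ventricle 2 and 0.121 without mutant SV 2.

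Its paralog *timp2b* varied strongly between replicates. Its CPM were 324 and 28.7 for the WT BA, 37.9 and 23.9 for the WT SV, 9.79 and 10.1 for the WT atrium and 5.01 and 20.6 for the WT ventricle. In the mutants they were 481 and 79.6 in the SV and 8.21 and 26.8 in the ventricle. Its highest values therefore came from 1 library of each vessel. *timp2b* was called higher in the BA than the atrium (log2 fold change 4.0, SE 1.12, adjusted p = 0.0286) and than in the ventricle (3.84, SE 1.1, adjusted p = 0.0239). Without WT BA 1, these differences were 1.16 (adjusted p = 0.512) and 1.06 (adjusted p = 0.449). The first call was also lost without WT atrium 1 (adjusted p = 0.126) or WT atrium 2 (adjusted p = 0.15), and the second without WT ventricle 1 (adjusted p = 0.187). The secreted proteases *mmp13a* and *mmp9* were highest in the same libraries of the BA and mutant SV, where *mmp13a* reached 47.3 and 74.9 CPM beside 7.15 and 8.06 in the other replicates. Hepatocyte markers were high in the same mutant SV library but not in WT BA 1, where they summed to 309 CPM beside 341 in the other replicate, and their part in the result was not tested.

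The remaining inhibitors were the 3 *timp4* genes, which lie next to each other in the zebrafish genome, all within the span of *syn2b*. *timp4.2* was highest in the SV, at 3.68 and 10.7 CPM for the WT and 6.09 and 7.51 for the mutant. It was 1.6 and 2.55 CPM for the WT BA, 1.40 and 1.53 for the WT atrium, 0.639 and 1.06 for the WT ventricle and 2.60 and 1.43 for the mutant ventricle. No library of another tissue reached the level of an SV library. *timp4.2* was higher in the WT SV than the ventricle by a log2 fold change of 2.96 (SE 0.59, adjusted p = 0.00293), than in the atrium by 2.18 (SE 0.57, adjusted p = 0.0196) and than in the BA by 1.75 (SE 0.55, adjusted p = 0.0466). The call against the atrium was lost without WT atrium 1, WT atrium 2 or WT SV 2 (adjusted p = 0.108, 0.115 and 0.179), and that against the BA without WT BA 1, WT BA 2 or WT SV 2 (adjusted p = 0.218, 0.066 and 0.4) and without the factor of unwanted variation (adjusted p = 0.0607). The mutant SV exceeded the mutant ventricle by 1.76 (SE 0.54, adjusted p = 0.0406), with adjusted p values of 0.0797, 0.226 and 0.136 without mutant ventricle 1, mutant ventricle 2 and mutant SV 2.

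*timp4.3* was the most abundant of the 3, with overlapping tissues. Its CPM were 16.0 and 8.79 for the WT BA, 12.2 and 4.05 for the WT SV, 16.4 and 7.50 for the WT atrium and 5.31 and 4.61 for the WT ventricle. The only call was in the BA against the ventricle (log2 fold change 1.52, SE 0.50, adjusted p = 0.0441). It was lost without WT BA 1, WT ventricle 1 or WT ventricle 2 (adjusted p = 0.249, 0.362 and 0.127) and under 6 other settings. *timp4.1* was near the floor, with 0 to 20 counts in every library but the mutant SV, where it had 95 and 24 counts, or 2.18 and 0.578 CPM. It was called in no comparison.

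**Figure D3:**
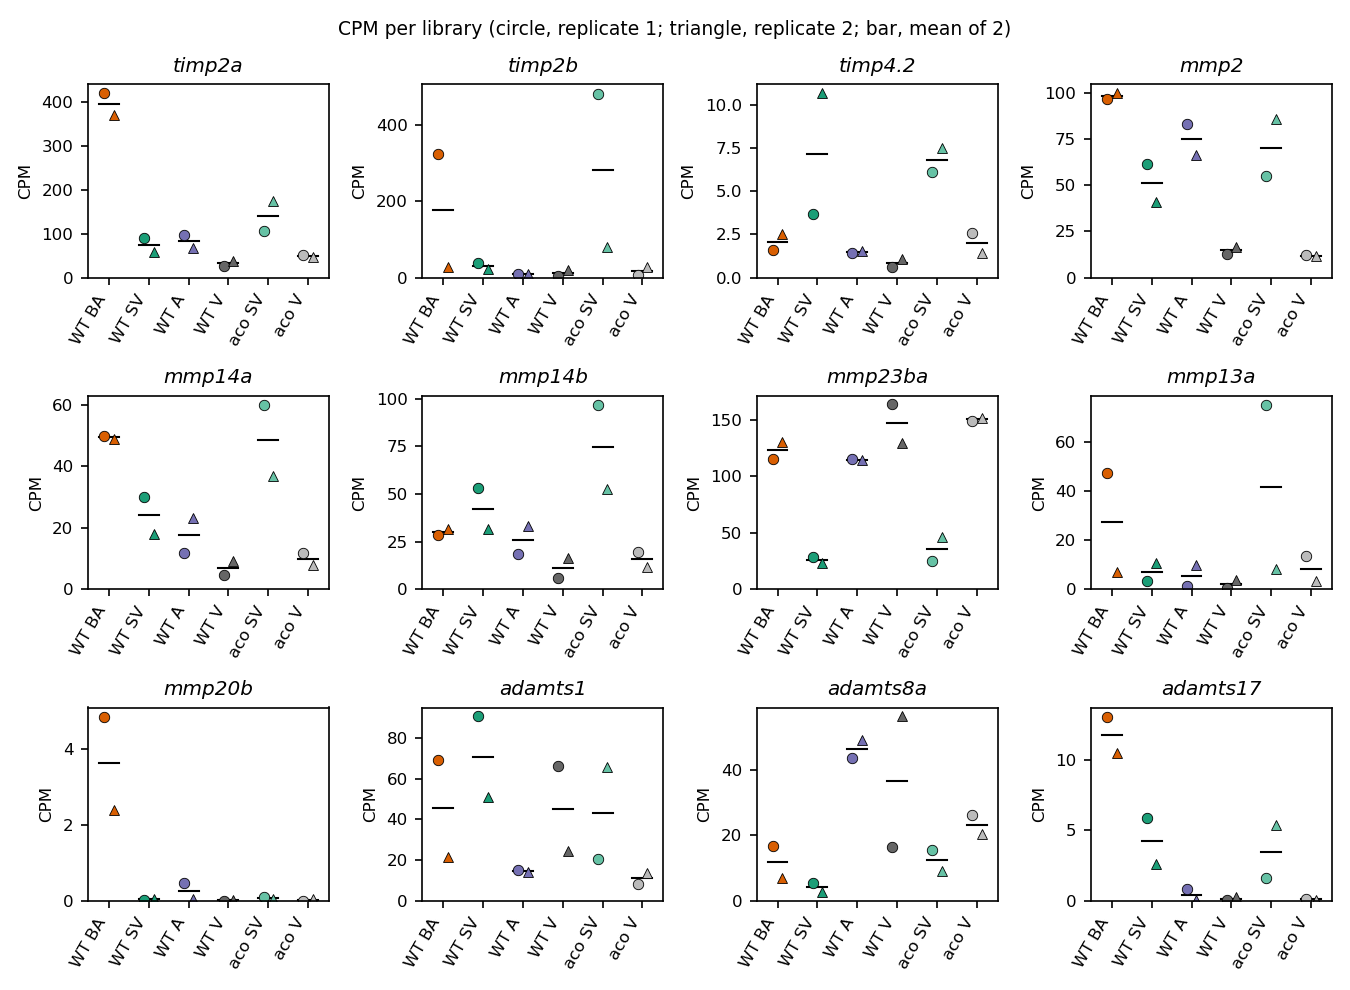
CPM of 12 members in each library, with circles for replicate 1, triangles for replicate 2 and bars for the mean of 2, each panel on its own linear axis. *timp2a* lies at 420 and 371 for the WT BA and at 175 or below elsewhere, *mmp23ba* at 46.6 or below in the 4 SV libraries and at 114 or above elsewhere, and *timp2b* and *mmp13a* each have 1 high library in the WT BA and the mutant SV.

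The secreted Mmps include gelatinases, collagenases and proteases with narrower known expression. *mmp2*, which encodes gelatinase A, was low in the ventricle and high in the other tissues. Its CPM were 96.4 and 100.1 for the WT BA, 61.7 and 40.8 for the WT SV, 83.2 and 66.5 for the WT atrium and 13.1 and 16.8 for the WT ventricle, and 54.8 and 86.0 for the mutant SV and 12.2 and 11.7 for the mutant ventricle. All 4 ventricular libraries were below the other 8. Against the WT ventricle, *mmp2* was higher in the BA by a log2 fold change of 2.76 (SE 0.34, adjusted p = 0.000195), in the atrium by 2.32 (SE 0.33, adjusted p = 0.00546) and in the SV by 1.83 (SE 0.33, adjusted p = 0.00166). The mutant SV exceeded the mutant ventricle by 2.57 (SE 0.34, adjusted p = 0.000431). In the atrium against the ventricle, the adjusted p was 0.0706 without WT ventricle 1 and 0.0665 without WT atrium 1.

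*mmp20b* was found mainly in the BA. Its mammalian counterpart is the enamel protease enamelysin. It had 178 and 92 counts for the WT BA, or 4.84 and 2.39 CPM, 19 and 2 counts for the WT atrium and at most 4 counts in every other library. *mmp20b* met the count limit only with the BA libraries, so that its excess there is in part given by the rule. Its CPM was 104-fold higher in the BA than the WT SV, with a 95% counting interval of 35.1 to 506, and 268-fold higher than in the WT ventricle, with an interval of 47.8 to 10639. The test gave log2 fold changes of -6.50 (SE 1.27, adjusted p = 0.00554) in the SV against the BA, 7.96 (SE 1.44, adjusted p = 0.00191) in the BA against the ventricle and 4.05 (SE 1.12, adjusted p = 0.0267) in the BA against the atrium. The first was at an adjusted p of 0.0528 without WT SV 2, and the last at 0.188 without WT BA 1 and 0.18 without WT atrium 2. The mutant SV, with 4 and 2 counts, remained below the BA (-5.19, SE 1.39, adjusted p = 0.0463), a call lost without WT BA 1 (-4.79) or mutant SV 2 (-4.20). Of 8 settings other than leaving out a library, it held under 3.

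*mmp13a*, which encodes a collagenase, was called in the BA against the ventricle (log2 fold change 3.81, SE 0.85, adjusted p = 0.00664) and the atrium (2.61, SE 0.79, adjusted p = 0.0402). Its CPM were 47.3 and 7.15 for the WT BA, 3.48 and 10.9 for the WT SV, 1.23 and 9.70 for the WT atrium and 0.442 and 3.79 for the WT ventricle. The BA and atrium overlapped, and the call between them held under 3 of 9 settings other than leaving out a library. Without WT BA 1 the differences were 1.51 (adjusted p = 0.0561) and 0.25 (adjusted p = 0.865). The call against the ventricle was also lost without WT ventricle 1 (adjusted p = 0.0593) and that against the atrium without WT atrium 1 (adjusted p = 0.332) or WT atrium 2 (adjusted p = 0.0818). *mmp9*, which encodes gelatinase B and was chosen after its values were seen, had 25.5 and 7.73 CPM for the WT BA, 62.4 and 21.9 for the mutant SV and 1.80 to 16.5 in the remaining libraries. It was higher in the BA than the ventricle by 2.15 (SE 0.63, adjusted p = 0.026), but by 0.87 (adjusted p = 0.332) without WT BA 1 and with an adjusted p of 0.0841 without WT ventricle 1. In the mutants, *mmp9* was higher in the SV than in the ventricle by 2.27 (SE 0.61, adjusted p = 0.0218), with adjusted p values of 0.0675, 0.179 and 0.0844 without mutant ventricle 1, mutant ventricle 2 and mutant SV 1. Macrophage markers summed to 251 and 195 CPM for the mutant SV, 179 and 58.8 for the mutant ventricle and 62.8 and 101 for the WT BA. They summed to 97.8 and 145 CPM for the WT SV, 46.9 and 61.2 for the WT atrium and 7.12 and 21.8 for the WT ventricle. Neutrophil markers summed to 275 and 305 CPM for the mutant SV, 166 and 186 for the mutant ventricle and 275 and 142 for the WT BA. They summed to 183 and 210 CPM for the WT SV, 214 and 150 for the WT atrium and 93.9 and 158 for the WT ventricle. The part of both lists in these differences was not tested.

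*mmp21*, whose human counterpart is known for a role in left-right patterning, was low in amount and highest in the SV. It had 33 and 81 counts for the WT SV, or 0.755 and 1.89 CPM, 48 and 19 for the mutant SV, 4 to 17 in the WT BA and atrium and at most 2 in the 4 ventricular libraries. Its CPM in the WT SV was 32.8-fold that of the ventricle, with a 95% counting interval of 10.9 to 161, and the test gave a log2 fold change of 4.52 (SE 1.01, adjusted p = 0.00555). In the mutants the ratio was 61.4-fold, with an interval of 10.6 to 2459, and the log2 fold change 5.38 (SE 1.13, adjusted p = 0.00589). *mmp13b* had 54 and 19 counts for the mutant SV and at most 5 elsewhere, with 0 in both mutant ventricle libraries, so that it was at least 11.0-fold higher in the mutant SV than in the mutant ventricle (adjusted p = 0.0137, and 0.0753 or 0.0553 without either mutant ventricle library). *mmp13b* reached 10 counts in the mutant SV libraries alone. It was thus a member only through the group where it was high, and its difference there is in part given by the rule. The other low secreted members were *mmp28*, at up to 1.35 CPM, and *mmp30*, at up to 0.55 CPM. Of these, *mmp28*, chosen after its values were seen, had 48 and 58 counts for the WT SV, 42 and 29 for the mutant SV and at most 13 elsewhere. It was called higher in the WT SV than the ventricle (log2 fold change 3.70, adjusted p = 0.022). The call was lost without WT ventricle 1 (2.86), WT SV 1 (3.81) or WT SV 2 (3.73).

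Of the membrane-bound Mmps, *mmp23ba* stood out as low in the SV and high in every other tissue. Mmp23 proteins are short Mmps that are anchored in the membrane in their precursor form. Its CPM were 28.1 and 23.5 for the WT SV and 24.5 and 46.6 for the mutant SV. They were 115 and 130 for the WT BA, 115 and 114 for the WT atrium, 164 and 129 for the WT ventricle and 149 and 151 for the mutant ventricle. No library of the SV overlapped with any other. In the WT SV, *mmp23ba* was lower by a log2 fold change of -2.23 than in the BA (SE 0.31, adjusted p = 0.000784), of -2.06 than in the atrium (SE 0.31, adjusted p = 0.000929) and of -2.36 than in the ventricle (SE 0.31, adjusted p = 0.000242). The mutant SV was lower than the mutant ventricle by -2.07 (SE 0.30, adjusted p = 0.000771) and lower than the WT BA by -1.67 (SE 0.31, adjusted p = 0.0101), the latter with an adjusted p of 0.0772 without mutant SV 1. Its paralog *mmp23bb* had the opposite order at a much lower level. It had 16 and 28 counts for the WT SV and 17 and 12 for the mutant SV, but 1 and 1 in the BA and 0 and 1 for the WT ventricle. Its CPM was 19.1-fold higher in the WT SV than the BA (95% counting interval 4.98 to 163, adjusted p = 0.037) and 38.0-fold higher than in the ventricle (6.47 to 1533, adjusted p = 0.0177). The first call was lost without any 1 of the 4 libraries (adjusted p between 0.0996 without WT SV 1 and 0.178 without WT SV 2), and the second without WT ventricle 1 (adjusted p = 0.105) or WT SV 2 (adjusted p = 0.0794).

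*mmp14a*, which encodes the membrane-type protease that activates Mmp2 in mammals, followed a gradient from the BA to the ventricle. Its CPM were 50.1 and 49.1 for the WT BA, 29.9 and 18.1 for the WT SV, 11.8 and 23.3 for the WT atrium and 4.52 and 9.34 for the WT ventricle. In the mutants they were 60.2 and 37.0 in the SV and 11.7 and 7.73 in the ventricle. Neighbours in this order overlapped only for the SV and the atrium. *mmp14a* was higher than in the ventricle by a log2 fold change of 2.71 in the BA (SE 0.36, adjusted p = 0.000287) and of 1.64 in the SV (SE 0.35, adjusted p = 0.00435), and by 2.18 in the mutants (SE 0.35, adjusted p = 0.0013). The BA exceeded the atrium by 1.43 (SE 0.34, adjusted p = 0.0135), with adjusted p values of 0.0556 without WT BA 1 and 0.148 without WT atrium 1. The SV was lower than the BA by -1.07 (SE 0.34, adjusted p = 0.049), a difference at the threshold that was lost without WT BA 1, WT BA 2 or WT SV 2 (adjusted p = 0.165, 0.0899 and 0.346) and under 7 other settings.

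The genes *mmp14b* and *mmp15a*, chosen after their values were seen, were also called against the ventricle. *mmp14b* had 28.6 and 31.7 CPM for the WT BA, 53.0 and 31.8 for the WT SV, 97.0 and 52.5 for the mutant SV, 18.7 and 33.2 for the WT atrium and 5.97 and 16.4 for the WT ventricle. The atrium overlapped both vessels, with differences of 0.09 for the BA against the atrium (adjusted p = 0.893) and 0.56 for the SV against the atrium (adjusted p = 0.299). The SV exceeded the ventricle by 1.78 in the WT (SE 0.36, adjusted p = 0.00304) and 2.06 in the mutants (SE 0.36, adjusted p = 0.00197). *mmp15a* had 21.6 and 35.1 CPM for the WT BA, 27.8 and 41.3 for the mutant SV and 5.40 and 8.22 for the WT ventricle, and the BA exceeded the ventricle by 2.05 (SE 0.41, adjusted p = 0.00325). The paralog *mmp15b* had its highest values in the atrium and ventricle. It had 3.37 and 2.08 CPM for the WT ventricle, 2.09 and 1.18 for the mutant ventricle and 0.951 and 1.07 for the WT atrium, but at most 0.408 in the BA and SV. Levels in the WT SV were lower than those of the ventricle by a log2 fold change of -3.73 (SE 0.73, adjusted p = 0.00256) and in the mutant SV than in the mutant ventricle by -4.74 (SE 0.79, adjusted p = 0.0016). The BA was lower than the ventricle by -2.65 (SE 0.68, adjusted p = 0.0139) and the SV lower than the atrium by -2.36 (SE 0.70, adjusted p = 0.0338). The former was lost without WT BA 1, WT BA 2 or WT ventricle 1 (adjusted p = 0.0701, 0.053 and 0.0886) and the latter without any 1 of the 4 libraries (adjusted p between 0.072 without WT atrium 1 and 0.216 without WT SV 1).

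The other membrane-bound members were *mmp16a*, at 0.909 to 7.87 CPM and called in no comparison, and 3 genes near the floor. Of these *mmp25b*, with 5 and 13 counts for the WT SV and 2 and 0 for the WT ventricle, was called between these tissues (ratio 7.76, 95% counting interval 1.86 to 69.0, adjusted p = 0.0315). The call was lost without WT ventricle 1, WT ventricle 2 or WT SV 2 (adjusted p = 0.152, 0.22 and 0.175) and without the factor (adjusted p = 0.196), and the counts are too few to show more.

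Of the 12 Adamts proteases, 2 were higher and 2 lower in the SV than the ventricle and 8 were not called, beside 19.4% of all genes higher and 16.2% lower. In the BA against the ventricle 3 were higher, 2 lower and 7 not called, beside 13.8% of all genes higher and 12.9% lower. *adamts17*, whose human counterpart is linked to disorders of fibrillin-rich connective tissue, was all but absent from the ventricle. Its CPM were 13.1 and 10.5 for the WT BA, 5.85 and 2.59 for the WT SV and 0.801 and 0.0536 for the WT atrium. It had 1 and 9 counts for the WT ventricle and 5 and 2 for the mutant ventricle, but 71 and 222 counts for the mutant SV, or 1.63 and 5.34 CPM. It was higher in the BA than the ventricle by a log2 fold change of 6.50 (SE 1.12, adjusted p = 0.00135), in the SV than in the ventricle by 5.05 (SE 1.08, adjusted p = 0.00421) and in the mutant SV than in the mutant ventricle by 5.16 (SE 1.11, adjusted p = 0.0066). Against the atrium, the BA was higher by 5.20 (SE 1.03, adjusted p = 0.00459) and the SV by 3.75 (SE 0.99, adjusted p = 0.0206). The former was at an adjusted p of 0.0562 without WT atrium 2, and the latter was lost without WT atrium 2 (adjusted p = 0.168) or WT SV 1 (adjusted p = 0.0979).

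*adamts10*, also linked to fibrillin microfibrils in human disease, was highest in the BA. Its CPM were 12.2 and 13.6 for the WT BA, 5.53 and 5.57 for the WT SV, 3.78 and 1.47 for the WT atrium and 5.18 and 3.20 for the WT ventricle. It was higher in the BA than the atrium by 2.68 (SE 0.39, adjusted p = 0.000777) and in the SV than in the atrium by 1.53 (SE 0.38, adjusted p = 0.0159). The latter was lost without WT atrium 1, WT atrium 2 or WT SV 2 (adjusted p = 0.0566, 0.239 and 0.0659). The procollagen protease gene *adamts2*, chosen after its values were seen, had 32.2 and 36.0 CPM for the WT BA, 29.2 and 14.8 for the WT SV and 5.23 and 4.23 for the WT ventricle. It was higher than in the ventricle by 3.12 in the BA (SE 0.42, adjusted p = 0.000284) and 2.51 in the SV (SE 0.41, adjusted p = 0.000815). *adamts7*, which cleaves cartilage oligomeric matrix protein in mammals, had 2.26 and 1.33 CPM in the BA and 0.183 and 0.536 in the SV (-2.33, SE 0.69, adjusted p = 0.0375), a call lost without WT BA 1, WT SV 1 or WT SV 2 (adjusted p = 0.191, 0.24 and 0.0653).

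*adamts8a* had higher values in the atrium and ventricle than in the WT SV. Its CPM were 43.6 and 49.1 for the WT atrium, 16.5 and 56.3 for the WT ventricle, 16.6 and 6.89 for the WT BA and 5.47 and 2.72 for the WT SV. In the mutants they were 15.4 and 9.20 in the SV and 26.1 and 20.4 in the ventricle. The 2 WT SV libraries were below all others. In the SV, *adamts8a* was lower than in the atrium by -3.66 (SE 0.58, adjusted p = 0.00129) and than in the ventricle by -3.20 (SE 0.56, adjusted p = 0.00132). The BA was lower than the atrium by -2.09 (SE 0.54, adjusted p = 0.0193), with adjusted p values of 0.069, 0.0795 and 0.0537 without WT BA 2, WT atrium 1 and WT atrium 2. The BA and ventricle overlapped. Their difference of -1.63 (SE 0.53, adjusted p = 0.04) was a call lost without WT ventricle 2 (-0.51) or WT BA 2 (-1.12). Of 9 settings other than leaving out a library, it held under 2. *adamts6* was highest in the atrium, at 4.21 and 5.04 CPM, beside 0.245 and 0.312 in the BA (BA against atrium -3.91, SE 0.84, adjusted p = 0.00736, and 0.0524 without WT BA 1). *adamts5*, a protease of aggrecan and versican, had 59 and 36 counts for the WT ventricle and 36 in 1 mutant SV library, but at most 9 in every other library. It met the count limit only with the WT ventricle libraries, so that its excess there is in part given by the rule. The WT ventricle held 47.8-fold the CPM of the BA (95% counting interval 12.9 to 400.3, adjusted p = 0.0107) and 18.4-fold that of the SV (8.13 to 51.3, adjusted p = 0.0173). Calls against the BA were lost without WT BA 1 (adjusted p = 0.0586) or WT ventricle 1 (adjusted p = 0.0645), and those against the SV without WT ventricle 1, WT SV 1 or WT SV 2 (adjusted p = 0.0939, 0.0912 and 0.0981).

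*adamts1*, which encodes a versican-cleaving protease, was the most abundant Adamts gene by FPKM. Its CPM were 69.3 and 21.4 for the WT BA, 90.8 and 50.8 for the WT SV, 15.1 and 14.3 for the WT atrium and 66 and 24.5 for the WT ventricle. In the mutants they were 20.7 and 65.9 in the SV and 8.16 and 13.7 in the ventricle. Replicates of 1 tissue differed about as much as tissues did, except for the atrium and the mutant ventricle, where all 4 libraries were low. *adamts1* was higher than in the atrium by 2.47 in the SV (SE 0.48, adjusted p = 0.00431, and 0.0558 without WT atrium 1) and by 1.72 in the BA (SE 0.47, adjusted p = 0.0252). The latter was 0.78 (adjusted p = 0.348) without WT BA 1 and at adjusted p values of 0.197 and 0.0722 without WT atrium 1 and WT atrium 2. The mutant SV exceeded the mutant ventricle by 2.02 (SE 0.48, adjusted p = 0.0112), with adjusted p values of 0.0836 without mutant ventricle 1 and 0.209 without mutant SV 2. A list of immediate early and injury response genes, added after values were seen and with 9 of 10 genes found, summed to 3307 and 13578 CPM for the mutant SV, 9645 and 2966 for the WT SV, 9937 and 7487 for the WT BA, 6093 and 3336 for the WT ventricle and 3603 and 4907 for the mutant ventricle. In each of these groups the library with more *adamts1* also had more of the list, while the WT atrium, with 14300 and 7254 CPM of the list, had little *adamts1*, and the part of these responses in the differences was not tested.

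The other Adamts members were *adamts15a*, at 2.80 to 16.9 CPM, and *adamts3*, *adamts9* and *adamts13*, at up to 2.47 CPM. *adamts15a* was highest in the mutant SV, at 9.92 and 16.9 CPM, beside 5.51 and 9.25 for the WT SV, 4.02 and 3.20 for the WT BA and 5.08 and 2.80 for the mutant ventricle. It was higher in the mutant SV than in the mutant ventricle by 1.77 (SE 0.45, adjusted p = 0.0161), with adjusted p values of 0.119 without mutant ventricle 2 and 0.102 without mutant SV 2. *adamts13*, the von Willebrand factor protease made in the liver in mammals, had 108 counts in mutant SV 1 and at most 34 elsewhere. That library had 3516 CPM of hepatocyte markers, beside 332 in the other mutant SV library, where *adamts13* had 5 counts. The WT SV had 10 and 34 counts of *adamts13* beside 314 and 499 CPM of these markers. The WT BA had 1 and 1 counts beside 309 and 341 CPM. The part of liver cells in the *adamts13* values was not tested.

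Among the Adamts-like genes, *adamtsl5* had its highest values in the atrium and ventricle. Its CPM were 4.91 and 1.96 for the WT atrium, 2.01 and 1.64 for the WT ventricle and 1.93 and 2.19 for the mutant ventricle, and at most 0.364 in the 6 libraries of the BA and SV. Levels in the WT SV were lower than those of the atrium by a log2 fold change of -3.53 (SE 0.64, adjusted p = 0.00264) and in the mutant SV than in the mutant ventricle by -4.62 (SE 0.70, adjusted p = 0.000881). The BA was lower than the atrium by -3.04 (SE 0.62, adjusted p = 0.00522, and 0.0503 without WT atrium 1) and than the ventricle by -2.20 (SE 0.60, adjusted p = 0.019, and 0.104 without WT BA 1), and the SV was lower than the ventricle by -2.68 (SE 0.62, adjusted p = 0.00661, and 0.0521 without WT SV 2). *adamtsl3* had 69 and 41 counts for the WT ventricle and 7 and 5 for the WT SV (-3.12, SE 0.94, adjusted p = 0.0241), with the call lost without WT ventricle 1, WT SV 1 or WT SV 2 (adjusted p = 0.071, 0.102 and 0.126). *adamtsl4*, at 0.409 to 3.10 CPM, was called in no comparison. *adamtsl7*, chosen after its values were seen, had 8.86 and 1.88 CPM for the mutant SV and at most 0.862 elsewhere. It was higher in the WT SV than the ventricle by 3.29 (SE 0.79, adjusted p = 0.00806), a call that held without each library in turn but was lost under 2 other settings (adjusted p = 0.0579 and 0.0625).

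The next comparisons set nr2f1a aco mutants against WT fish, in each of both tissues. No member was called between the mutant and WT SV, where 1.54% of all genes were called (0.293% higher and 1.25% lower), nor between the mutant and WT ventricle, where 0.272% were (0.167% higher and 0.104% lower). DESeq2 also called none, beside 4.67% of all genes for the SV and 3.25% for the ventricle. By edgeR, 4 members had an unadjusted p below 0.05 in the SV, beside 14.0% of all genes, and all 4 had the higher values in the mutant. They were the Adamts-like gene *adamtsl7*, with 8.86 and 1.88 CPM for the mutant and 0.526 and 0.862 for the WT (log2 fold change 1.91, 95% interval 0.55 to 3.28, adjusted p = 0.175), *timp2a* (0.97, 0.16 to 1.79, adjusted p = 0.257), *mmp15a* (0.99, 0.12 to 1.85, adjusted p = 0.285) and *adamts8a* (1.25, 0.06 to 2.45, adjusted p = 0.329). In 16 of the 37 tested members both mutant SV libraries were above both WT SV libraries, beside 24.0% of all genes tested, and in 3 both were below, beside 23.6%. The median log2 fold change was 0.54, beside -0.01 over all genes. Along with this, fibroblast markers summed to 1810 and 1558 CPM for the mutant SV and 655 and 634 for the WT SV, macrophage markers to 251 and 195 beside 97.8 and 145, and enterocyte markers to at most 4.56 beside 1370 and 1457. Epicardium markers summed to 331 and 253 CPM beside 117 and 143, neutrophil markers to 275 and 305 beside 183 and 210, and endothelium markers to 203 and 238 beside 193 and 135. Cardiomyocyte markers were at 1686 and 466 CPM beside 2764 and 1793, and erythrocyte markers at 15979 and 20231 beside 44817 and 91758. Smooth muscle markers, at 1204 and 5635 CPM beside 3343 and 2594, and hepatocyte markers, at 3516 and 332 beside 314 and 499, overlapped. The fibroblast list includes *col1a1a*, which the paper found raised in the main smooth muscle population of the mutant SV by single-cell RNA-seq, so its sum does not count fibroblasts alone. No gene found of these lists was at 0, except 2 of the 5 enterocyte genes in each mutant SV library. The part of these in the members' values was not tested.

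Differences in the SV are given with their intervals for the members that were not called. For *mmp2* the difference was 0.52 (95% interval -0.20 to 1.24), for *mmp14a* 0.66 (-0.10 to 1.42), for *mmp23ba* 0.56 (-0.10 to 1.22) and for *mmp14b* 0.37 (-0.41 to 1.15). For the inhibitors *timp4.3* and *timp4.2* it was 0.87 (-0.26 to 2.01) and -0.16 (-1.31 to 1.0). Variable genes had wider intervals, with 2.42 (-0.06 to 4.89) for *timp2b*, 0.85 (-0.82 to 2.52) for *mmp13a* and 1.19 (-0.13 to 2.50) for *mmp9*. Under settings other than leaving out a library, the difference of *mmp13a* ranged from 0.82 to 2.56. Both mutant libraries were above both WT ones for *timp2b* and *mmp9*, and the groups overlapped for *mmp13a*.

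In the ventricle, 5 members had an unadjusted p below 0.05 by edgeR, beside 14.3% of all genes. *adamtsl7* had the higher values in the mutant, with 0.818 and 0.411 CPM beside 0 and 0.117 (log2 fold change 2.71, 95% interval 0.93 to 4.49, adjusted p = 0.178). The other 4 had a negative difference. They were *adamtsl3* (-2.90, -4.97 to -0.82, adjusted p = 0.209), *adamts5* (-3.81, -6.58 to -1.04, adjusted p = 0.216), *adamts1* (-1.27, -2.37 to -0.18, adjusted p = 0.288) and *timp4.1*, which had no counts in the mutant and 0 and 20 for the WT (adjusted p = 0.308). In 3 members both mutant libraries were above both WT ones and in 7 below, beside 23.7% and 23.5% of all genes. The median was 0.03 over the members and 0.02 over all genes. Macrophage markers summed to 179 and 58.8 CPM for the mutant ventricle and 7.12 and 21.8 for the WT, and neutrophil markers to 166 and 186 beside 93.9 and 158. Endothelium markers were at 211 and 237 CPM beside 335 and 352, and smooth muscle markers at 98.3 and 149 beside 213 and 171. Cardiomyocyte markers, at 28643 and 90363 CPM beside 82040 and 121656, overlapped. The part of these in the members' values was not tested. The interval for *mmp2* was -0.97 to 0.52 around -0.22, and for *mmp23ba* -0.43 to 0.96 around 0.26. An interaction term compared the genotype effects in both tissues, and no member was called there, beside 0.198% of all genes, 0.0209% higher and 0.178% lower. DESeq2 called no member there, beside 2.66% of all genes. By edgeR, 5 members had an unadjusted p below 0.05, beside 12.2% of all genes. They were *adamts5*, *adamtsl3*, *adamts8a*, *timp4.1* and *adamtsl4*, with a smallest adjusted p of 0.207.

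**Figure D4:**
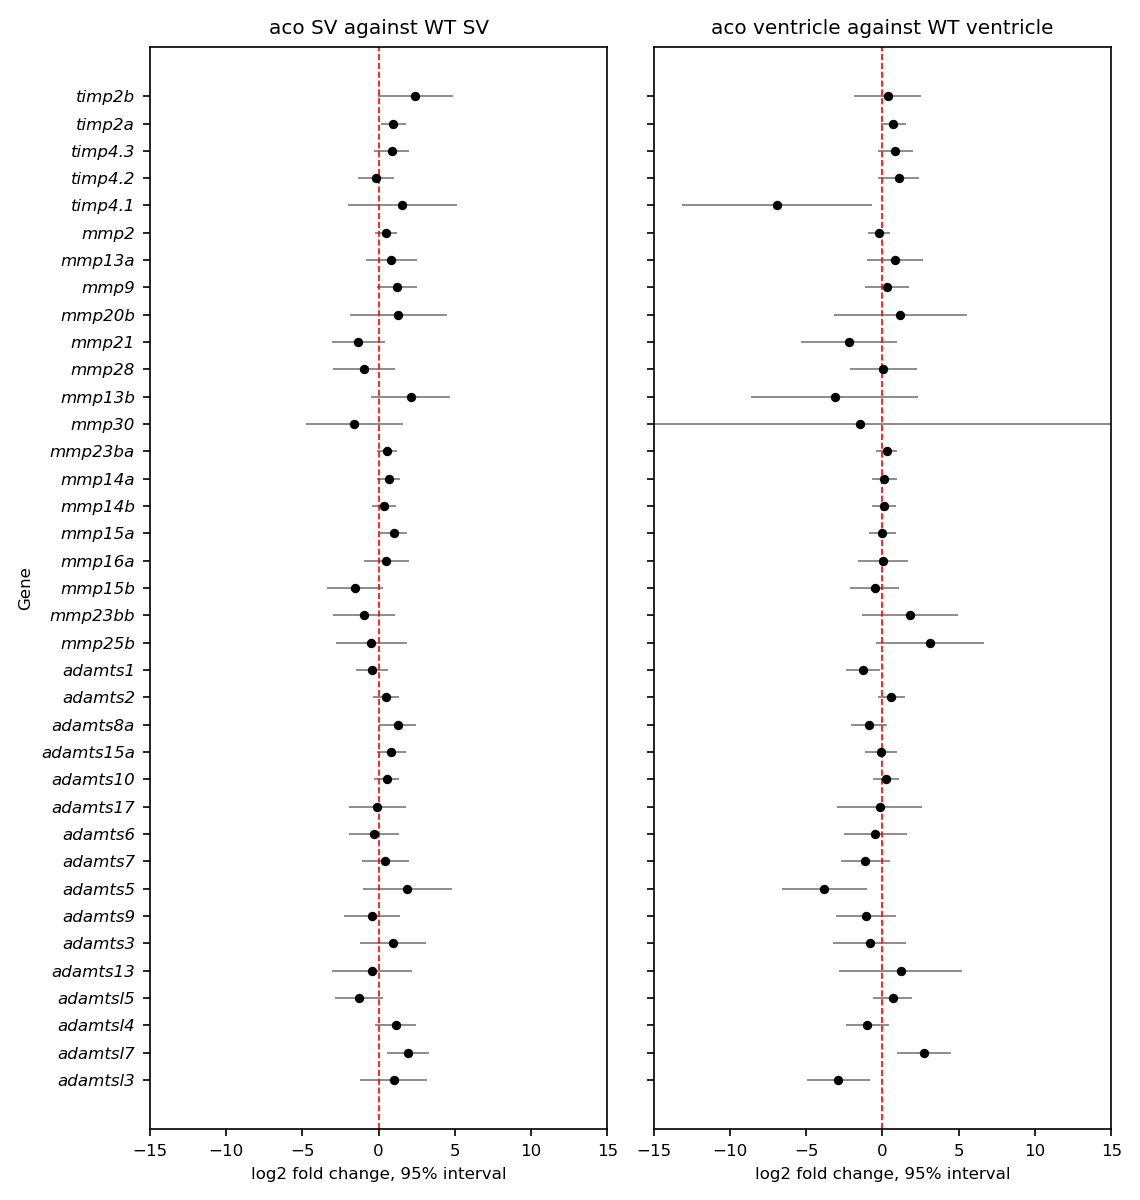
Log2 fold change of the 37 tested members in the mutant against the WT SV (left) and the mutant against the WT ventricle (right), with the 95% interval derived from the edgeR test as a line and 0 as a dashed line. The interval of *mmp30* in the ventricle, where it had no counts in any library, runs beyond the axis. In the SV 24 points lie above 0 and 13 below, in the ventricle 19 and 18, and none had an adjusted p below 0.05.

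Against the WT BA, the mutant SV differed in 4 members, beside 7.32% of all genes, 3.49% higher and 3.82% lower. *adamts15a* was higher by a log2 fold change of 1.87 (SE 0.46, adjusted p = 0.0324), and *mmp23ba*, *timp2a* (-1.42, SE 0.38, adjusted p = 0.0453) and *mmp20b* were lower. With DESeq2 size factors in place of TMM the calls were 2 higher and 1 lower. The call of *adamts15a* was lost without WT BA 1, WT BA 2 or mutant SV 2 (adjusted p = 0.0908, 0.0922 and 0.178), and that of *timp2a* without WT BA 1, WT BA 2 or mutant SV 1 (adjusted p = 0.13, 0.0613 and 0.217). Without WT BA 1 only 1 member was called, without mutant SV 1 only 2, and with both groups fitted alone none. Without WT BA 1 or mutant SV 1, fewer of all genes were called as well, and with both groups fitted alone 0 of 16836 genes were called. Set side by side, *timp2a* had 91.2 and 58.4 CPM for the WT SV, 105 and 175 for the mutant SV and 420 and 371 for the WT BA. *mmp14a* had 29.9 and 18.1, 60.2 and 37.0, and 50.1 and 49.1 in the same order, and *mmp23ba* 28.1 and 23.5, 24.5 and 46.6, and 115 and 130. The mutant SV and the BA overlapped for *mmp14a*, and both mutant SV libraries were below both BA libraries for *timp2a* and *mmp23ba*. These comparisons share the mutant SV libraries. The genes set side by side followed no rule set in advance, and other members had other orders. For the WT SV, mutant SV and WT BA, mean CPM were 7.38, 13.4 and 3.61 for *adamts15a* and 4.22, 3.48 and 11.8 for *adamts17*.

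The list of other genes of this pathway held 50 genes that activate, inhibit, resemble or serve as substrates of these proteases, of which 45 were tested. In the WT BA against the ventricle 22 were called higher and 3 lower, beside 13.8% and 12.9% of all genes. They were led by the fibronectin gene *fn1a* (log2 fold change 5.80, SE 0.36, adjusted p = 2.14e-05), the serine protease gene *htra1a* (11.84, SE 0.77, adjusted p = 2.17e-05) and the versican gene *vcanb* (5.36, SE 0.44, adjusted p = 3.55e-05), and the 3 lower were *tll1*, *bsg* and *pcsk5b*. In the WT SV against the ventricle 21 were higher and 4 lower, beside 19.4% and 16.2% of all genes, with *fn1a* (4.22, SE 0.34, adjusted p = 3.61e-05), *htra1a* (8.71, SE 0.74, adjusted p = 4e-05) and the elastin gene *elnb* (6.61, SE 0.82, adjusted p = 0.000169) leading and *bsg*, which encodes an inducer of Mmps, lower by -2.17 (SE 0.37, adjusted p = 0.00112). The SV differed from the BA in 4 genes that were higher and 12 that were lower, beside 9.37% and 8.69% of all genes. The aggrecan gene *acana* (-6.97, SE 0.71, adjusted p = 0.00018), *vcanb* (-3.11, SE 0.38, adjusted p = 0.000479) and the clearance receptor gene *lrp1aa* (-2.82, SE 0.36, adjusted p = 0.000536) were lower. *plg*, which encodes plasminogen and is made in the liver, was higher by 7.40 (SE 1.46, adjusted p = 0.00583). Hepatocyte markers summed to 314 and 499 CPM for the WT SV and 309 and 341 for the WT BA. Enterocyte markers summed to 1370 and 1457 CPM beside 2.77 and 2.03. Their part in the *plg* difference was not tested.

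Counts were also taken by role. In the BA against the ventricle 8 of 13 substrates were higher, together with 6 of 7 inhibitors and clearance receptors, 5 of 12 activators and 3 of 13 related proteases. In the SV against the ventricle these numbers were 9, 5, 4 and 3. Lower were 2 activators and 1 related protease in the BA, and 2 of each in the SV, but no substrate or inhibitor. Of all genes tested, 13.8% were higher and 12.9% lower in the BA than the ventricle, and 19.4% and 16.2% in the SV. Without WT ventricle 1, 14 rather than 25 genes of the list were called between the BA and ventricle and 15 rather than 25 between the SV and ventricle, and without WT SV 2, 7 rather than 16 were called between the SV and BA. Fewer of all genes were called in these fits as well. Between the mutant and WT SV, 5 genes of the list were called, beside 1.54% of all genes. The fibronectin gene *fn1b* (log2 fold change 2.47, SE 0.40, adjusted p = 0.0107), *acana* (3.49, SE 0.64, adjusted p = 0.0214), *lrp1ab* (1.75, SE 0.37, adjusted p = 0.0441) and the collagen gene *col1a2* (1.43, SE 0.31, adjusted p = 0.0475) were higher in the mutant, and *comp*, a cartilage matrix gene, was lower (-2.35, SE 0.47, adjusted p = 0.0331). Between the mutant and WT ventricle none was called, and in the interaction only *acana* was (5.41, SE 0.84, adjusted p = 0.0417). The 5 calls between the mutant and WT SV became 1 without WT SV 1, 0 without WT SV 2, 2 without mutant SV 1, 3 without mutant SV 2, 0 without the factor of unwanted variation and 9 by DESeq2. Over all genes, the 295 calls as reported became 138 without the factor and 895 by DESeq2. Without each of these libraries fewer of all genes were called too. The call in the interaction was lost without WT ventricle 1, WT ventricle 2, WT SV 1, WT SV 2 or mutant ventricle 1. Of these genes, *col1a2* is also 1 of the fibroblast markers.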

How the data were processed

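Bulk RNA-seq of 12 libraries, 2 in each of 6 groups, was analysed from deposited tables. According to the methods and processing notes, the authors used cutadapt for trimming, STAR for alignment to danRer11 (the notes also list GRCz10 and danRer10) and featureCounts for uniquely aligned reads, using strand and allowing reads on overlapping genes. The deposited raw counts per gene are not normalized. The deposited FPKM values were scaled by the authors with DESeq2 size factors. Single- and paired-end runs were mixed and the batch of each library was not given in the sources used here. The tables also hold the authors' fold changes, p-values and group means, which were not used, and 30 columns of values were left out.

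Counts were tested with edgeR 4.0.16 in R 4.3.3 (quasi-likelihood test, TMM scaling, filterByExpr, 19145 of 22158 genes kept), with all 12 libraries in 1 model of 6 groups and 1 factor of unwanted variation computed here by the RUVs method. Tests were two-sided with Benjamini-Hochberg adjustment over all genes tested and a threshold of 0.05. Alternatives were no factor, the replicate number as a block, DESeq2 1.42.0, DESeq2 size factors, other filters on low counts, no mitochondrially encoded genes, the compared groups alone and each library left out. Permuting 2 against 2 libraries cannot reach the threshold.

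Members and gene lists were chosen with earlier results of these data known. Genes were named by rule: every Timp, the 8 members of highest mean FPKM, the 4 called members with the largest change in each direction of each comparison, members called between genotypes and those at the count limit. For the pathway list the rule was the 3 called genes of smallest p in each direction of the comparisons described, and not all of these are named. All other genes named were chosen after their values were seen. Gene neighbours came from RefSeq names of GRCz12tu, where 38 of 39 members matched, 21 overlapped another gene and 14 a protein-coding one. Figures were drawn with matplotlib 3.10.9.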

Additional observations from a re-analysis of the deposited data

How the results depend on the processing

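The number of members called between the WT SV and BA was 7 as reported, beside 3457 of 19145 genes. It was 3 without the factor of unwanted variation, beside 2495 of 19145. With a mean CPM of at least 1 it was 3, beside 2897 of 13863, and by DESeq2 13, beside 4322 of 19145. Between the BA and ventricle, 18 became 11 without the factor, while calls over all 19145 genes went from 5111 to 4429. Between the mutant SV and BA, 4 members were called as reported, beside 1401 of 19145 genes. They became 2 with a mean CPM of at least 1, beside 1176 of 13863, and 0 with both groups fitted alone, beside 0 of 16836. With DESeq2 size factors 1 higher and 3 lower became 2 higher and 1 lower, beside 1306 of 19145. Between the atrium and ventricle, 1 became 7 by DESeq2, while calls over all 19145 genes went from 978 to 2126. DESeq2 size factors moved the median of all genes by 0.108 in the SV against the atrium. No member was called in either comparison of genotypes or in the interaction under any alternative run.

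With replicate numbers as a block replacing the factor, the calls were 3 in the SV against the BA, 4 in the SV against the atrium, 5 in the BA against the atrium, 9 in the BA against the ventricle and 1 in the mutant SV against the BA. Over all 19145 genes, 1664, 2423, 2392, 3683 and 493 were called in the same order. With the block beside the factor, the member calls were 3 in the SV against the BA and 1 in the mutant SV against the BA, beside 2351 and 719 of 19145 genes. Deviations of same-numbered libraries correlated with r from -0.476 to 0.176. With 2 pairs per comparison these values cannot show whether same-numbered libraries came from the same fish. A crossed pairing, chosen after seeing the data, called 0 members in the mutant against the WT SV and 0 in the ventricle.

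Leaving out 1 library at a time, the calls ranged from 2 to 7 in the SV against the BA, 4 to 6 in the SV against the atrium, 12 to 18 in the SV against the ventricle, 5 to 13 in the BA against the atrium, 9 to 17 in the BA against the ventricle, 0 to 2 in the atrium against the ventricle, 1 to 4 in the mutant SV against the BA and 12 to 17 in the mutant SV against the mutant ventricle, and were 0 in all other comparisons. A lone library was assumed to vary like the other groups. In most of these fits fewer of all genes were called too, so that the ranges do not concern the members alone.

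Some differences between genotypes that were not called changed in size under settings other than leaving out a library. For the SV, *mmp13a* (0.85) ranged from 0.82 to 2.56 and *adamtsl7* (1.91) from 1.89 to 2.96. For the ventricle, *adamts1* (-1.27) ranged from -2.05 to -1.25. The factor of unwanted variation was 2.07 and -0.479 for the mutant SV and -0.206 and 0.261 for the WT SV. It was 1.09 and -0.230 for the mutant ventricle and -1.72 and 0.384 for the WT ventricle. Other differences changed sign. In the SV, the log2 fold change of *timp4.2* (-0.16) was 0.0051 with the replicate block replacing the factor, 0.014 with the crossed pairing and ranged from -0.70 to 0.75 without 1 library, positive without WT SV 2 or mutant SV 1. That of *mmp23ba* (0.56) ranged from -0.030 without mutant SV 2 to 0.86. In the ventricle, *timp2b* (0.35) was -0.15 with the crossed pairing and ranged from -1.04 to 1.65, negative without WT ventricle 1 or mutant ventricle 2. There *mmp2* (-0.22) ranged from -0.50 to 0.084 without WT ventricle 2, and *timp4.3* (0.85) from -0.0035 without mutant ventricle 2 to 1.18. The cause was not tested.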

Other observations

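Genes that lie next to each other differed in their levels. *adamts1* and *adamts5* are neighbours, and *adamts1* had 90.8 and 50.8 CPM in the WT SV where *adamts5* had 3 and 3 counts, while both were present in the WT ventricle. *adamts8a* overlaps *adamts15a*, and in the WT atrium *adamts8a* had 43.6 and 49.1 CPM beside 2.93 and 3.0 of *adamts15a*, while in the WT SV they had 5.47 and 2.72 beside 5.51 and 9.25. The 6 genes left out by the count limit had at most 13 counts in any library.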
